A study of Mus musculus with 6 samples.

Results

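The lipoxygenases and the enzymes of leukotriene synthesis were examined in mouse ear skin after sensitisation to, and challenge with, a contact allergen. They were taken as 10 named genes, Alox5, Alox5ap, Alox8, Alox12, Alox12b, Alox12e, Alox15, Aloxe3, Lta4h and Ltc4s, out of 19938 genes measured. All 10 were on the array, each through 1 probe set that carried a single gene symbol, and none was left out for a low level. The RNA came from whole ear skin, taken from 6 mice between 10 and 12 weeks old, with 1 mouse and 1 ear per array. Of these, 3 mice were CLEC4C-DTR/+ and 3 were littermate control mice, labelled CLEC4C-DTR-. CLEC4C is active in plasmacytoid dendritic cells of humans, and the transgene uses it to drive a receptor for diphtheria toxin, which makes expressing cells sensitive to the toxin. Toxin was given to both groups, 200 ng each on days -1, 1, 3 and 5. Both were treated with 0.5% FITC (fluorescein isothiocyanate, a skin-sensitising dye) in acetone and dibutyl phthalate on the abdomen on days 0 and 2, and the same FITC solution on the right ear on day 6. Ears that received solvent alone, mice without toxin and the time of collection were not analysed here, so loss of cells and the transgene itself cannot be told apart as sources of a difference.

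Lipoxygenases insert oxygen into arachidonic acid and related fatty acids, and the position of the oxygen sets the product. In leukocytes, 5-lipoxygenase works with its helper FLAP to make leukotriene A4. That intermediate becomes leukotriene B4, an attractant of neutrophils, or the cysteinyl leukotrienes, which make vessels leak and smooth muscle contract. In epidermis, other lipoxygenases oxidise linoleate held in acylceramides, a step without which the water barrier fails.

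Values are log2 RMA values as the authors deposited them, and differences are CLEC4C-DTR minus littermate control on that scale, with the standard error (SE) of the limma fit. The number of arrays, 3 per group, limits their precision. The skin origin was borne out by the keratins Krt5 and Krt14, which averaged 12.11 and 12.10 in CLEC4C-DTR ears, against 12.26 and 12.08 in control ears. Siglech, a surface lectin by which plasmacytoid dendritic cells are known in the mouse, was at 5.42, 5.52 and 5.47 in CLEC4C-DTR ears and at 5.68, 5.41 and 5.83 in control ears, and its difference of -0.17 did not pass the limma test (adjusted p = 0.378). The array medians lay between 6.17 and 6.23, above all Siglech values, and RMA compresses differences at low levels.

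Among the 10 genes, 3 rose, 2 fell and 5 did not pass in CLEC4C-DTR ears. The rises were those of Alox8 (4.90-fold), Alox5ap (2.51-fold) and Alox12b (2.02-fold), and the falls those of Alox12e (3.38-fold) and Alox12 (1.60-fold). A gene was called at a limma p of 0.05 after Benjamini-Hochberg adjustment over all genes, a rule that called 9.32% of the 19938 genes, 5.01% as higher and 4.31% as lower. With the 2-fold size that the study's design text adds, 4 of the 10 were called, 3 higher and 1 lower, against 2.05% of all genes, 1.67% higher and 0.376% lower. The groups did not overlap in the same 5 genes, 3 higher and 2 lower, and in 33.0% of all genes, 14.0% higher and 19.0% lower. The median difference was 0.24 over the 10 genes and -0.04 over all genes. An exact permutation test of a single gene cannot give less than 0.1 with 3 against 3 arrays, and it gave 0.1 for each of the 5. In whole skin, fewer cells of a type and less RNA per cell cannot be told apart.

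**Figure D1:**
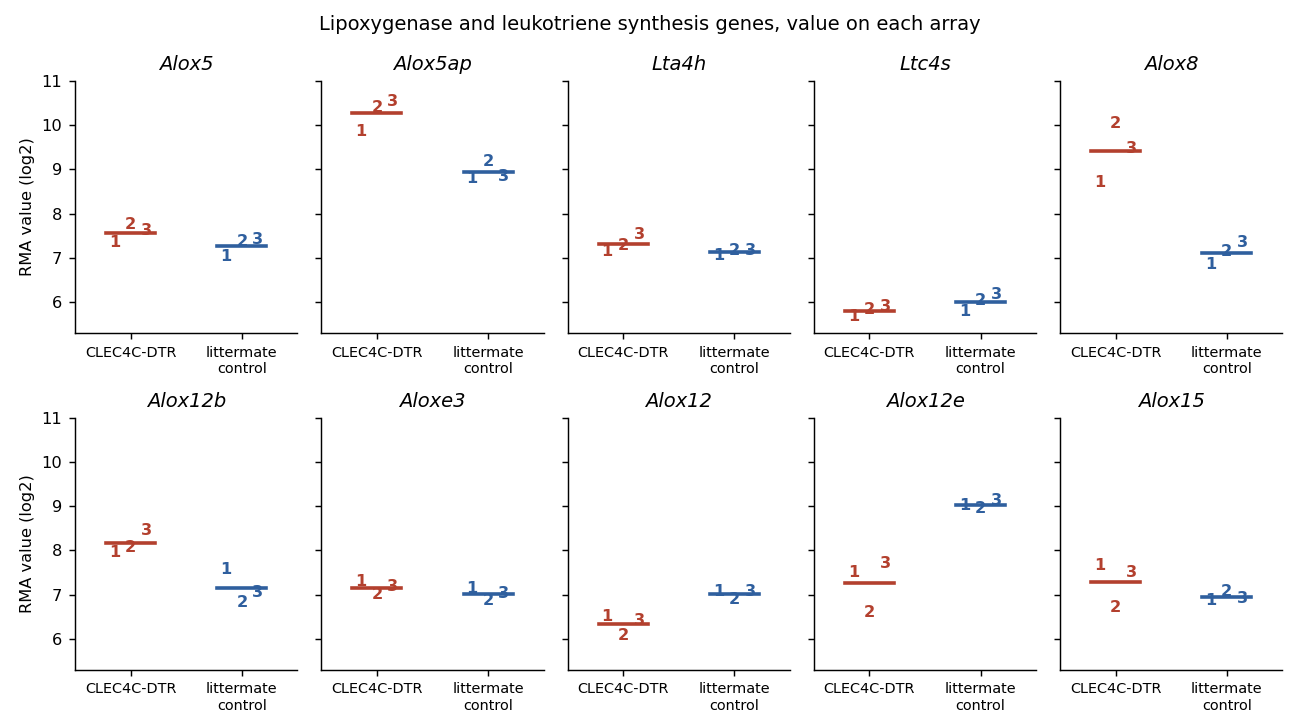
RMA values (log2, vertical axis) of the 10 genes on each array, with CLEC4C-DTR ears in red and littermate control ears in blue. Digits are replicate numbers and lines are group means of 3 arrays. For Alox8 all CLEC4C-DTR values lie at or above 8.71 and all control values at or below 7.36, while for Alox12e all CLEC4C-DTR values lie at or below 7.70 and all control values at or above 8.94.

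In the 5-lipoxygenase branch, the helper protein gene rose and the enzymes did not pass the test. Alox5ap encodes FLAP, the membrane protein that hands arachidonic acid to 5-lipoxygenase. It was at 9.87, 10.39 and 10.54 in CLEC4C-DTR ears and at 8.81, 9.18 and 8.83 in control ears. The groups did not overlap, and CLEC4C-DTR replicate 1 was the lowest of its group. The difference was 1.33 (SE 0.18, limma adjusted p = 0.0128). It missed the threshold when CLEC4C-DTR replicate 3 was left out (adjusted p = 0.0526), and likewise for littermate control replicates 1 (adjusted p = 0.0537) and 3 (adjusted p = 0.0662).

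Alox5, the 5-lipoxygenase itself, was at 7.35, 7.74 and 7.62 in CLEC4C-DTR ears and at 7.02, 7.38 and 7.42 in control ears. The lowest CLEC4C-DTR value lay within the control range, and the difference of 0.30 (SE 0.14) did not pass (adjusted p = 0.221). Its 95% interval ran from -0.03 to 0.62, which reaches up to a 1.54-fold rise. Set against Alox5 on the same array, Alox5ap was 2.52, 2.65 and 2.92 log2 units above it in CLEC4C-DTR ears and 1.79, 1.80 and 1.41 above it in control ears. That within-array difference was larger in CLEC4C-DTR ears by 1.03 (SE 0.17), with no overlap of the groups and an exact permutation p of 0.1, the smallest possible. Alox5ap alone already separated the groups. The pair was 1 of 3 compared, chosen after the values were seen, and the adjusted p was 0.1 for each.

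The enzymes downstream of 5-lipoxygenase differed little. Lta4h, the hydrolase that turns leukotriene A4 into leukotriene B4, was at 7.14, 7.28 and 7.53 in CLEC4C-DTR ears and at 7.06, 7.16 and 7.17 in control ears. Its difference was 0.19 (SE 0.11, adjusted p = 0.317), with a 95% interval of -0.07 to 0.44. Ltc4s, the synthase that joins leukotriene A4 to glutathione, was at 5.68, 5.83 and 5.90 in CLEC4C-DTR ears and at 5.79, 6.03 and 6.18 in control ears. Its difference was -0.20 (SE 0.12, adjusted p = 0.326), with a 95% interval of -0.46 to 0.07. For both genes the groups overlapped, and both intervals lay inside a 2-fold change in either direction. Ltc4s was the 1 member below the median level of all genes, where RMA compresses differences.

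**Figure D2:**
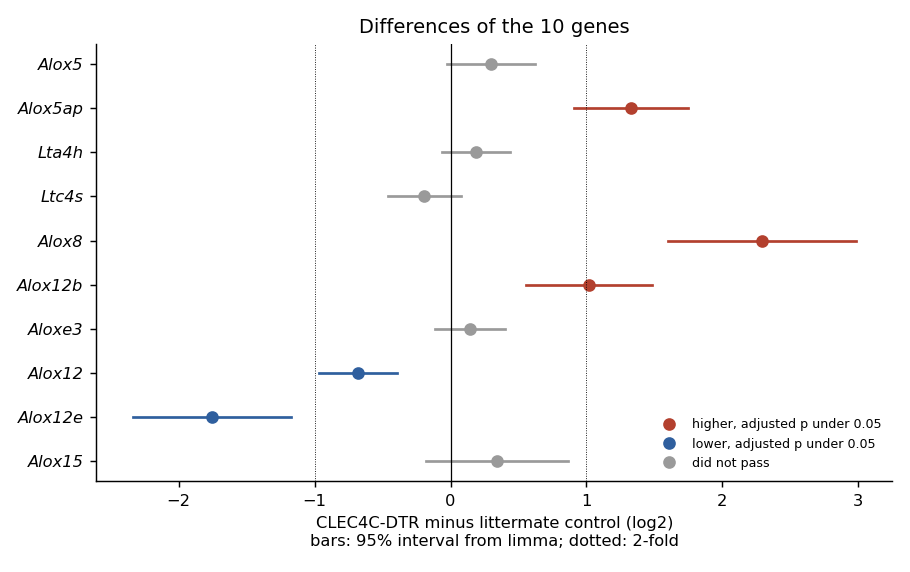
Difference between CLEC4C-DTR and littermate control ears (log2, horizontal axis) for each of the 10 genes, with 3 arrays per group. Points are limma estimates, bars are 95% intervals, and dotted lines mark a 2-fold change. Alox8 at 2.29 and Alox12e at -1.76 lie farthest from 0 on either side, and the intervals of Alox5, Lta4h, Ltc4s, Aloxe3 and Alox15 cross 0.

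Some receptors for these lipids were higher in CLEC4C-DTR ears. Of 8 measured receptors of leukotrienes and other lipoxygenase products, 3 rose and 5 did not pass, and the median difference was 0.31. Over all genes 5.01% were called higher. Ltb4r1, the high-affinity receptor of leukotriene B4, was at 8.87, 9.29 and 8.82 in CLEC4C-DTR ears and at 8.12, 8.50 and 7.95 in control ears, a difference of 0.81 (SE 0.17, adjusted p = 0.0312). Cysltr1, a receptor of cysteinyl leukotrienes, was at 8.09, 7.83 and 8.09 in CLEC4C-DTR ears and at 7.39, 7.57 and 7.50 in control ears, a difference of 0.52 (SE 0.10, adjusted p = 0.0243). Cmklr1, a chemerin receptor also described as a receptor of a resolvin, rose by 0.65 (SE 0.12, adjusted p = 0.0203). Cysltr2 was among the dimmest probe sets named here and differed by 0.36 (SE 0.18, adjusted p = 0.229). With an array left out, Ltb4r1 and Cmklr1 each passed in 2 of 6 fits and Cysltr1 in 3, with adjusted p of up to 0.119.

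Partners of 5-lipoxygenase and enzymes that process its products moved in both directions. Among 7 genes of peroxide control and 5-lipoxygenase partners, the 2 that rose were both partners. Cotl1, an actin-binding protein that also binds 5-lipoxygenase, was at 8.18, 8.51 and 8.74 in CLEC4C-DTR ears and at 7.55, 7.64 and 7.38 in control ears, a difference of 0.96 (SE 0.15, adjusted p = 0.0151). Mapkapk2, a kinase that phosphorylates 5-lipoxygenase, differed by 0.74 (SE 0.14, adjusted p = 0.0230). The 5 glutathione peroxidase genes of the list did not pass. Of 9 genes that process or export cysteinyl leukotrienes, 1 rose and 1 fell, and the list's median was -0.23. Beside both lists, 5.01% of all genes were called higher and 4.31% lower. The rise was that of Dpep2, a dipeptidase that acts on leukotriene D4, by 0.77 (SE 0.14, adjusted p = 0.0216). The fall was that of Mgst1, a microsomal glutathione transferase of the same protein family as Ltc4s and Alox5ap, by 0.38 on the log2 scale (SE 0.07, adjusted p = 0.0244).

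Among 8 genes of leukotriene and lipoxygenase product breakdown, 1 rose and none fell, against 5.01% higher and 4.31% lower over all genes. Cyp4f18, the cytochrome P450 of mouse neutrophils that hydroxylates leukotriene B4, was at 6.55, 7.93 and 7.99 in CLEC4C-DTR ears and at 5.73, 5.83 and 5.56 in control ears. The groups did not overlap, and CLEC4C-DTR replicate 1 stood between them. The difference was 1.78 (SE 0.34, adjusted p = 0.0242), or 3.44-fold. With an array left out, Cyp4f18 passed in 2 of 6 fits, as did Dpep2 and Mapkapk2, while Cotl1 passed in 3 and Mgst1 in 1.

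Some markers of neutrophils and of macrophages, cells that hold this branch, were higher beside it, and those of other such cells mostly did not pass. Of 12 neutrophil markers 7 rose and none fell, against 5.01% higher and 4.31% lower over all genes. The mean of the list was 7.66, 8.66 and 8.57 in CLEC4C-DTR ears and 6.93, 6.95 and 6.70 in control ears. Csf3r, the receptor of the neutrophil growth factor, was at 8.51, 10.07 and 9.92 in CLEC4C-DTR ears and at 7.55, 7.25 and 6.60 in control ears. As for Cyp4f18, CLEC4C-DTR replicate 1 was the lowest of its group. Of 11 macrophage and monocyte markers 7 rose and none fell, with list means of 8.87 to 9.22 in CLEC4C-DTR ears and 7.93 to 8.36 in control ears. In these lists 3 neutrophil and 2 macrophage markers had lower values, none of which passed. Of 11 mast cell markers 1 rose, with a list median of 0.04, and of 9 eosinophil and basophil markers none passed, with 1 at an unadjusted p under 0.05. Values on this scale have no true zero, and the part of either cell type in the rises of Alox5ap, Cyp4f18, Cotl1 and the receptors was not tested.

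**Figure D3:**
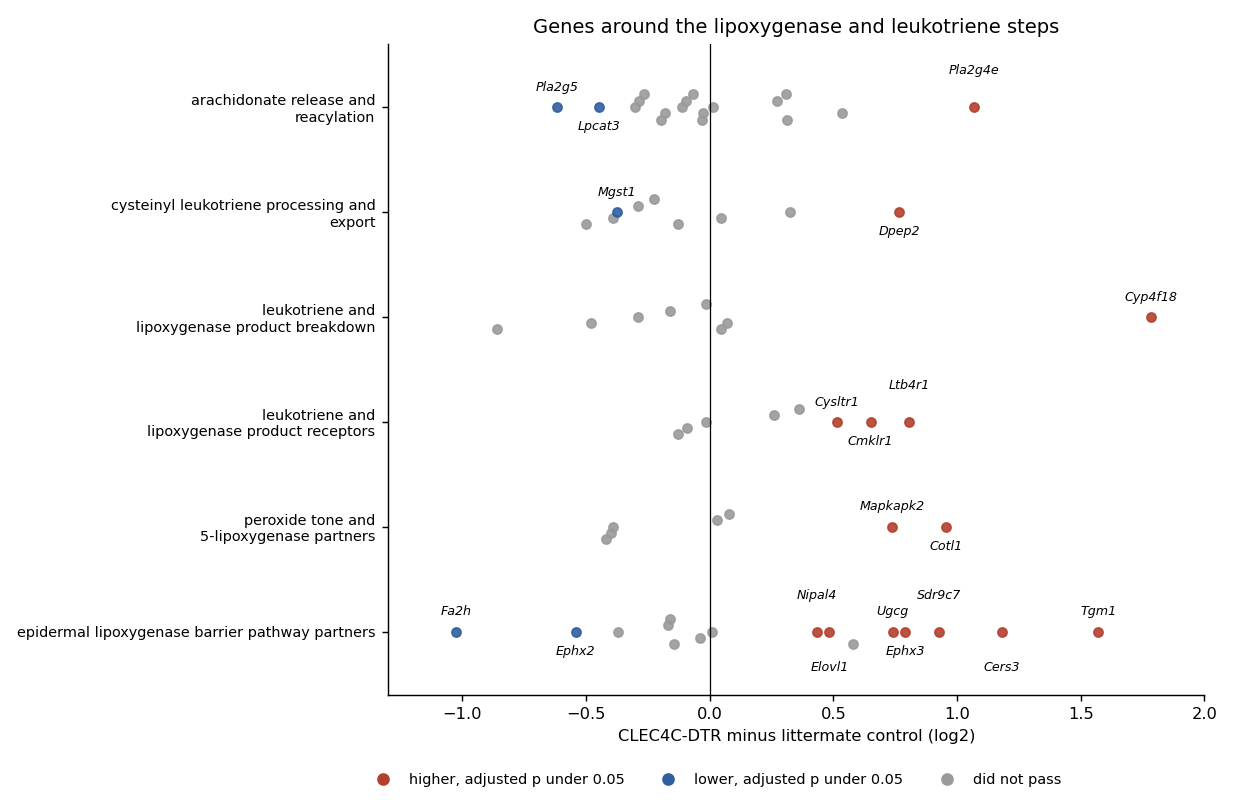
Difference between CLEC4C-DTR and littermate control ears (log2, horizontal axis) for 66 measured genes in 6 lists around the lipoxygenase and leukotriene steps, 1 point per gene. Red and blue points passed the test as higher and lower and are named, and grey points did not pass. The 3 named receptors lie between 0.52 and 0.81, and the 9 named barrier genes lie on both sides of 0.

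Alox8, the mouse 8S-lipoxygenase, had the largest rise of the 10 genes. Its human counterpart is the second 15-lipoxygenase, ALOX15B, and in mouse skin the enzyme is known to be induced by phorbol ester. It was at 8.71, 10.04 and 9.48 in CLEC4C-DTR ears and at 6.85, 7.14 and 7.36 in control ears. A gap of 1.35 log2 units lay between the groups, and the CLEC4C-DTR values varied more among themselves (SD 0.67) than the control values (SD 0.26). The difference was 2.29 (SE 0.30, limma adjusted p = 0.0116), or 4.90-fold with a 95% interval of 3.03-fold to 7.92-fold. Leaving out CLEC4C-DTR replicate 3 gave an adjusted p of 0.0526, and leaving out littermate control replicates 1 or 3 gave 0.0508 or 0.0543, each just past the threshold.

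Alox12b and Aloxe3 act in sequence on the linoleate of acylceramides, and loss of either causes ichthyosis in humans. Alox12b, the 12R-lipoxygenase, was at 7.96, 8.08 and 8.44 in CLEC4C-DTR ears and at 7.57, 6.81 and 7.05 in control ears. The groups did not overlap, with littermate control replicate 1 the nearest to the CLEC4C-DTR values. The difference was 1.02 (SE 0.20, adjusted p = 0.0259). It passed without CLEC4C-DTR replicate 1 and without littermate control replicate 1, but not without CLEC4C-DTR replicate 2 (adjusted p = 0.0641), CLEC4C-DTR replicate 3 (adjusted p = 0.0834), littermate control replicate 2 (adjusted p = 0.0532) or littermate control replicate 3 (adjusted p = 0.107).

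Aloxe3, which isomerises the hydroperoxide that Alox12b makes, was at 7.30, 6.99 and 7.17 in CLEC4C-DTR ears and at 7.15, 6.86 and 7.02 in control ears. The groups overlapped, and the difference of 0.15 (SE 0.11) did not pass (adjusted p = 0.447). Its 95% interval of -0.11 to 0.40 corresponds to 0.926-fold to 1.32-fold. Alox12b minus Aloxe3 on the same array was 0.66, 1.08 and 1.27 in CLEC4C-DTR ears and 0.42, -0.05 and 0.02 in control ears. That within-array difference was larger in CLEC4C-DTR ears by 0.87 (SE 0.23), with no overlap and an exact permutation p of 0.1, the smallest possible. The pair was chosen after the values were seen, and Alox12b alone already separated the groups.

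Among the 16 measured partners of the epidermal barrier pathway, 7 rose, 2 fell and 7 did not pass, with a median difference of 0.22. Over all genes 5.01% were called higher and 4.31% lower. Cers3, the ceramide synthase that builds ultra-long acyl chains into acylceramides, was at 8.90, 9.35 and 9.47 in CLEC4C-DTR ears and at 8.06, 8.16 and 7.96 in control ears. Its difference was 1.18 (SE 0.15, adjusted p = 0.0107), and it passed in 5 of 6 fits with an array left out. Tgm1, the transglutaminase of the cornified envelope, rose by 1.57 (SE 0.24, adjusted p = 0.0146). Ugcg, which adds glucose to ceramides, rose by 0.74 (SE 0.14), Elovl1, a fatty acid elongase, by 0.48 (SE 0.08), and Sdr9c7, a dehydrogenase that acts on the oxidised acylceramide, by 0.93 (SE 0.20). These 4 genes passed in 1 to 3 of the fits with an array left out.

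The 2 falls in the barrier list were both of lipid enzymes, named after their values were seen. Fa2h, which adds a hydroxyl group to fatty acids and is also expressed in sebaceous glands, was at 10.56, 9.74 and 10.70 in CLEC4C-DTR ears and at 11.40, 11.19 and 11.48 in control ears, a fall of 2.04-fold (adjusted p = 0.0354). It passed in 2 of 6 fits with an array left out, where its adjusted p reached 0.136 and its difference -0.73. Ephx2, the soluble epoxide hydrolase, differed by -0.54 (SE 0.14, adjusted p = 0.0466) and passed in none of the 6 fits with an array left out, where its adjusted p ran from 0.0527 to 0.130. Pnpla1, which makes the acylceramide itself, differed by 0.01 (adjusted p = 0.970), and Cyp4f39, which hydroxylates its fatty acid, by -0.17 (adjusted p = 0.450). Keratinocyte markers were counted beside these genes, and the part of keratinocytes in the differences was not tested. Of 8 basal markers 1 fell and none rose, against 4.31% lower and 5.01% higher over all genes, and 7 had lower values. Of 8 differentiation markers none passed, with 7 at lower values and 3 at an unadjusted p under 0.05. The means of the differentiation list were 10.58, 9.80 and 10.64 in CLEC4C-DTR ears and 10.87, 10.49 and 10.88 in control ears.

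The 12-lipoxygenase genes Alox12e and Alox12 were lower in CLEC4C-DTR ears. Alox12e, the epidermal 12-lipoxygenase, was at 7.50, 6.60 and 7.70 in CLEC4C-DTR ears and at 9.01, 8.94 and 9.13 in control ears. A gap of 1.24 log2 units lay between the groups, and the control values were close together (SD 0.10) while CLEC4C-DTR replicate 2 lay below the other two of its group. The gene fell by 1.76 on the log2 scale (SE 0.25, adjusted p = 0.0140), or 3.38-fold with a 95% interval of 2.26-fold to 5.06-fold. It passed in 4 of 6 fits with an array left out, and not without littermate control replicate 1 (adjusted p = 0.0542) or littermate control replicate 3 (adjusted p = 0.0723).

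Alox12, the 12-lipoxygenase of platelets, which skin also expresses, was at 6.50, 6.08 and 6.40 in CLEC4C-DTR ears and at 7.08, 6.88 and 7.06 in control ears. The groups did not overlap, and CLEC4C-DTR replicate 2 was again the lowest. The difference was -0.68 (SE 0.12, adjusted p = 0.0203), a fall of 1.60-fold. It missed the threshold without CLEC4C-DTR replicate 3 (adjusted p = 0.0643), littermate control replicate 1 (adjusted p = 0.0727) and littermate control replicate 3 (adjusted p = 0.0924). Platelet markers were counted beside it, and the part of platelets in the fall of Alox12 was not tested. Of 6 measured, all had higher values, with list means of 6.22 to 6.87 in CLEC4C-DTR ears and 5.77 to 6.02 in control ears. Of these 1 rose, against 5.01% called higher over all genes. It was Pf4, a gene that macrophages can also express, by 1.29 (SE 0.29, adjusted p = 0.0354). Itga2b, the platelet integrin chain, differed by 0.06 (adjusted p = 0.781).

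Alox15, the leukocyte 12/15-lipoxygenase of macrophages and eosinophils, was at 7.66, 6.70 and 7.51 in CLEC4C-DTR ears and at 6.86, 7.07 and 6.91 in control ears. CLEC4C-DTR replicates 1 and 3 lay above all control values and CLEC4C-DTR replicate 2 below them. The difference of 0.34 (SE 0.23) did not pass (adjusted p = 0.375). Without CLEC4C-DTR replicate 2 it was 0.64 and passed (adjusted p = 0.0391), and over the other 17 alternatives the adjusted p was 0.204 to 0.681.

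Alox12e and Alox15 are neighbouring genes, a pair chosen after the values were seen. Their difference within an array separated the groups, as Alox12e alone already did. Alox12e minus Alox15 was -0.16, -0.10 and 0.19 in CLEC4C-DTR ears and 2.14, 1.87 and 2.22 in control ears. The within-array difference was smaller in CLEC4C-DTR ears by 2.10 log2 units (SE 0.15). The exact permutation p was 0.1, the smallest possible. The 2 genes are close in sequence, and whether their probes cross-hybridise was not tested here.

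Markers of skin appendages were lower beside the falls. Of 9 sebaceous gland markers 4 fell and none rose, against 4.31% lower and 5.01% higher over all genes. The list means were 8.33, 7.92 and 8.36 in CLEC4C-DTR ears and 8.75, 8.60 and 8.81 in control ears. Elovl3, a fatty acid elongase of sebaceous glands, was at 9.04, 8.22 and 9.14 in CLEC4C-DTR ears and at 9.92, 9.86 and 9.88 in control ears. As for Alox12e, Alox12 and Fa2h, CLEC4C-DTR replicate 2 had the lowest value. This was not particular to sebaceous glands. Replicate 2 also had the lowest CLEC4C-DTR list mean for keratinocytes, skeletal muscle, cartilage and fibroblasts, whereas for hair follicle replicate 3 did. Of 11 hair follicle markers 2 fell and none rose, Sox9 by 0.66 and Lgr6 by 0.89 on the log2 scale. The part of either structure in the falls of Alox12e and Alox12 was not tested.

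The 6 lipoxygenase genes other than Alox5 lie in 2 groups on mouse chromosome 11 (assembly GRCm38.p6). In the first group Aloxe3, Alox12b and Alox8 follow each other, and in the second Alox12, Alox12e and Alox15, with no other protein-coding gene inside either group. The calls were higher in the first group, for 2 of 3 genes, and lower in the second, for 2 of 3 genes. The 4 nearest measured genes on each side of the first group, 8 in all, held no call, and their differences ran from -0.45 to 0.36. Of the 8 around the second group, 2 rose and none fell, against 5.01% higher and 4.31% lower over all genes. The rises were those of Arrb2, an arrestin, by 1.05 (adjusted p = 0.0140), and of Cxcl16, a chemokine, by 0.93 (adjusted p = 0.0172), both on the Alox15 side and named after their values were seen.

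**Figure D4:**
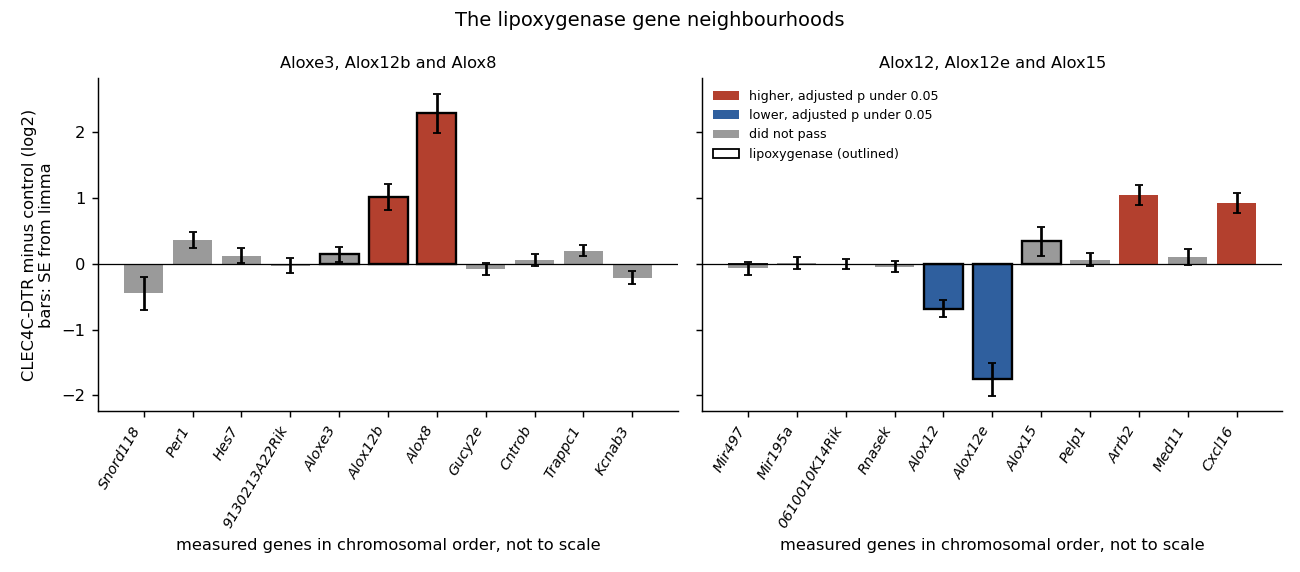
Difference between CLEC4C-DTR and littermate control ears (log2, vertical axis) for the lipoxygenases of chromosome 11 (outlined) and the 4 nearest measured genes on either side, in chromosomal order and not to scale. Error bars are limma standard errors with 3 arrays per group. Alox12b and Alox8 reach 1.02 and 2.29, Alox12 and Alox12e -0.68 and -1.76, and the genes directly beside each group lie close to 0.

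The start regions of the 4 called genes of chromosome 11 are shown, of which Alox12b and Alox8 rose in the first group and Alox12 and Alox12e fell in the second. The remaining gene of each group, Aloxe3 and Alox15, did not pass. Promoter sequences (250 bases before to 50 after the start, RefSeq, GRCm38.p6) were at hand for 7 of the 10 genes. Capitals mark matches to the GC box, GGGCGG, on either strand.
Alox8 (chr11:69197794-69198093, minus strand): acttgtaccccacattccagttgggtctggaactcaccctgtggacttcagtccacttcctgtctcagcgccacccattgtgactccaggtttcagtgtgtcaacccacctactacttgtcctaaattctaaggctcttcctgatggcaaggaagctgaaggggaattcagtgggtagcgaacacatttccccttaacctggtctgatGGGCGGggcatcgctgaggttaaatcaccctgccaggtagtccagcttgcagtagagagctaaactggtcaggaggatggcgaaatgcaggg
Alox12b (chr11:69156822-69157121, plus strand): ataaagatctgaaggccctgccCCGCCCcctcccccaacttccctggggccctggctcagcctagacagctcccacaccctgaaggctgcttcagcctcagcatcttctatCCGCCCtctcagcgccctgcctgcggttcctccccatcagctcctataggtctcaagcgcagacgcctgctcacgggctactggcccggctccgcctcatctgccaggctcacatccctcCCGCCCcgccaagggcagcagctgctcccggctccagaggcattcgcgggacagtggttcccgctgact
Alox12e (chr11:70322481-70322780, minus strand): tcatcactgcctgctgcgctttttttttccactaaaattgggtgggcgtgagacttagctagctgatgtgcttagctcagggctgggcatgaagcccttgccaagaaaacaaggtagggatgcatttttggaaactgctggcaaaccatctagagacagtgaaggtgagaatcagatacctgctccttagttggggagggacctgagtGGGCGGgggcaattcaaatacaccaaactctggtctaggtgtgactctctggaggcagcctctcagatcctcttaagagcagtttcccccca
Alox12 (chr11:70255321-70255620, minus strand): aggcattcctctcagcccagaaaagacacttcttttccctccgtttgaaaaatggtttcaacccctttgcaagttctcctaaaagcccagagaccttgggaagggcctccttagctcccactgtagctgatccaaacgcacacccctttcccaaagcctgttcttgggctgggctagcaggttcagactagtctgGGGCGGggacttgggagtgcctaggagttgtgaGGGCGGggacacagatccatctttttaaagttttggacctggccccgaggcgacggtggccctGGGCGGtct
Each of these 4 windows holds at least 1 GC box, as do 35.7% of 32851 promoters of the same length, and Alox12 and Alox12b hold 3 each. Among the members that did not pass, the window of Alox5 also holds 1, and those of Lta4h and Ltc4s hold none. In Alox8 and in Alox12e, which moved in opposite directions, the GC box starts at the same distance, 42 bases before the start. The C/EBP motif TTNNGNAA has 2 overlapping matches in Alox12 and 2 in Alox12e and none in Alox8 or Alox12b, against a match in 40.7% of all promoters. Neither the AP-1 motif TGANTCA, found in 7.81% of promoters, nor the STAT motif TTCNNNGAA, found in 8.30%, nor TATAAA, found in 13.6%, is in any of the 4 windows on either strand. A match is a run of letters and not evidence of binding.

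Upstream of all lipoxygenases, calls among the genes that release arachidonic acid from membranes or return it to them went in both directions. Of 18 measured, 1 rose, 2 fell and 15 did not pass, with a median difference of -0.08. Over all genes 5.01% were called higher and 4.31% lower. Pla2g4e, a cytosolic phospholipase A2 family member that also transfers acyl chains, was at 8.34, 8.81 and 8.75 in CLEC4C-DTR ears and at 7.57, 7.60 and 7.54 in control ears. The control values lay within 0.1 of each other, and the difference was 1.07 (SE 0.13, adjusted p = 0.00989). It passed in 5 of 6 fits with an array left out. Pla2g5, a secreted phospholipase A2, fell by 0.62 on the log2 scale (SE 0.14, adjusted p = 0.0352), and Lpcat3, which puts arachidonate back into phospholipids, by 0.45 (SE 0.11, adjusted p = 0.0442). Both passed in 1 of the 6 fits. Pla2g4a, the calcium-dependent phospholipase that feeds 5-lipoxygenase in leukocytes, differed by 0.31 (SE 0.13, adjusted p = 0.183).

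Over the 66 measured genes of the 6 lists around the members, 15 rose, 5 fell and 46 did not pass. Of all genes, 9.32% were called. Without littermate control replicate 3 none of the 20 passed, with 28 of the 66 at an unadjusted p under 0.05. The median difference was -0.03, close to that of all genes. The lists were chosen with earlier results of these data known, and their counts are a description.

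For each called member the genes with the most similar values were listed as a description, since any gene has nearest genes among so many. Likeness was the root mean square difference over the 6 arrays between 2 genes, each centred on its own mean, and the 3 closest genes were taken for each. Nearest to Alox12 was Dsg2, a desmosomal cadherin, at 0.03 log2 units, and nearest to Alox8 was Gjb2, an epidermal connexin, at 0.20. Alox12e lay nearest to Aspn, a matrix proteoglycan, at 0.18, and Alox5ap to Tlr1, a receptor for bacterial lipoproteins, at 0.08. Alox12b lay nearest to Hmox1, a haem oxygenase, at 0.14. The other genes listed were Rbp2 and Mmp9 for Alox8, Slc2a1 and F630028O10Rik for Alox5ap, Mmp19 and H2ac4 for Alox12b, Aadacl2fm1 and Dapl1 for Alox12e, and Echdc1 and Slc1a4 for Alox12.

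The number of members called moved with the arrays used. It was 5 when CLEC4C-DTR replicate 1 was left out, 5 when CLEC4C-DTR replicate 2 was, and 4 when littermate control replicate 2 was. Without CLEC4C-DTR replicate 3 the only call was the fall of Alox12e. With littermate control replicate 1 left out, the only call was the rise of Alox12b. Without littermate control replicate 3 limma called 0 members, with 5 at an unadjusted p under 0.05. Over all 19938 genes the same 6 fits made between 67 and 2617 calls.

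**Figure D5:**
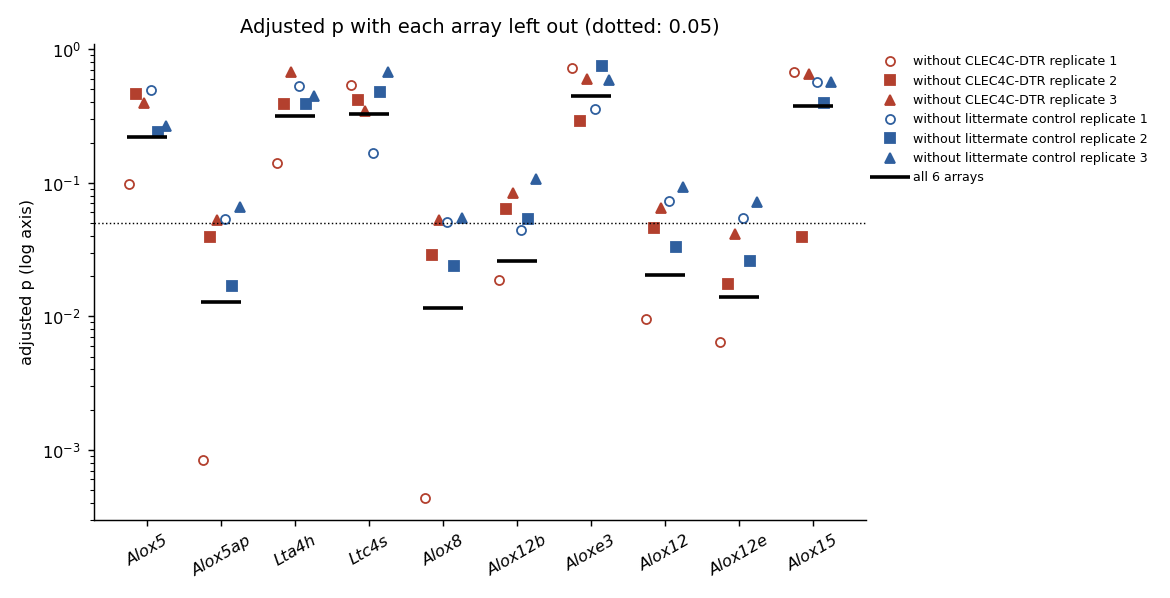
Adjusted p of the limma fit (vertical axis, log scale) for each of the 10 genes with all 6 arrays (black bars) and with each array left out in turn (red, a CLEC4C-DTR array left out; blue, a littermate control array left out). The dotted line marks 0.05. The values of Alox8 reach from 0.000432 without CLEC4C-DTR replicate 1 to 0.0543 without littermate control replicate 3.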

How the data were processed

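RNA from whole ear skin was measured on Mouse Gene 1.0 ST arrays (Affymetrix), per the labels' protocols and the series' design text. Values are on the log2 scale and were made by RMA before the authors deposited them, per the design text. RMA in general corrects background, equalises the arrays by quantiles and summarises probes. They range over 1.60 to 13.9. The RMA software is not named in the labels, and the submitters' processing notes name mm8 without its role. RMA removes shifts shared by most genes and compresses dim ones. The table holds no background measure and no batch.

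Of 35556 probe sets, 21789 had 1 gene symbol in the platform annotation, 1621 several and 12146 none listed; the brightest per gene gave 19938 genes. Symbols were updated through the RefSeq table of GRCm38.p6, which held 21698 of the identifiers. CLEC4C-DTR was compared with littermate control in limma 3.58.1 (lmFit, eBayes, statmod 1.5.0, R 4.3.3), two-sided, without covariates, which gave every adjusted p of a gene. Replicates are separate mice, and no 2 arrays were identical. On simulated data for this comparison, run on 19938 genes, 18, 48, 49 and 50 of 50 genes changed by 0.5, 1, 2 and 3 log2 units were recovered. Exact permutation tests used scipy 1.17.1 and figures matplotlib 3.10.9. The members, 6 pathway lists and 17 cell type lists were chosen with earlier results of these data known. Genes were named by rule: all members, Siglech, the leukotriene receptors and the called genes of each pathway list (up to 5, by smallest p). The 3 closest genes of each called member were also named. For cells that make or hold lipoxygenase products, the rule allowed up to 3 markers by smallest p per list. Of these only Hdc, Fscn1 and Pf4 were given, and the smallest-p neutrophil and macrophage markers were not. Other named genes (Csf3r, Elovl3, Sox9, Lgr6, Itga2b, Krt5, Krt14, Pla2g4a, Pnpla1, Cyp4f39, Fa2h, Ephx2, Arrb2, Cxcl16, Cd2, Mylpf) were chosen after their values were seen. Ltb4r2 had no probe set with 1 symbol and was not analysed here. Alternatives were scaling, dim-gene filters, variance moderation, array weights, probe set rules, all probe sets, the replicate block and leaving out 1 array at a time.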

Additional observations from a re-analysis of the deposited data

How the results depend on the processing

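The calls of 3 rises and 2 falls among the members were the same under median centring, a further quantile normalisation, both filters on dim genes, an intensity trend, robust moderation, array weights, the mean of probe sets, the most variable probe set and the replicate block. The filter at the median left out Ltc4s. No member's difference changed sign under median centring, the further quantile normalisation, array weights or leaving out 1 array. The other alternatives could not move these differences. They changed the genes tested, the variance or the choice among probe sets, and each member had 1 probe set. With no moderation of variances limma called 0 members and 0 of the 66 pathway genes, with 5 and 28 at an unadjusted p under 0.05, so 0 members were called with the 2-fold size although their differences did not move. With all 35556 probe sets tested, 0 members and 1 pathway gene were called, with 5 and 31 at an unadjusted p under 0.05, so 0 were called with the 2-fold size, again at unmoved differences; the 5 members called before then had adjusted p of 0.056 to 0.071. Leaving out 1 array gave 0 to 5 members, 0 to 4 called with the 2-fold size and 0 to 23 pathway genes, against 5, 4 and 20 with all arrays. Pathway calls were 6 and 2 when CLEC4C-DTR replicate 2 or 3 was left out, and 2, 12 and 0 when littermate control replicate 1, 2 or 3 was, the last with 28 at an unadjusted p under 0.05. The cause was not tested. Same-numbered arrays did not deviate together throughout (correlations of -0.06, 0.22 and 0.10 over genes for replicates 1, 2 and 3), and CLEC4C-DTR replicate 1 correlated best with littermate control replicate 3 (0.18), so the numbers were not taken to pair mice. With the replicate block the members called were 5, with the 2-fold size 4, and the pathway genes called 23. The exact permutation of single members cannot pass 0.05 with 3 against 3. With no background measure, absence of a dim gene cannot be read from these values.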

Other observations

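Markers of other cell types of the ear were counted in the same way. Over all genes 5.01% were called higher and 4.31% lower. Of 7 T cell markers all had higher values in CLEC4C-DTR ears, and 1 rose. It was Cd2, which helps T cells adhere, at a difference of 1.18 (SE 0.14, adjusted p = 0.0102). Of 10 conventional dendritic and Langerhans cell markers 4 rose and none fell, with a list median of 0.12. Lower values were seen for 4 of the 10, none of which passed. The marker with the smallest p was Fscn1, the actin-bundling protein of mature dendritic cells. It was at 7.88, 7.99 and 7.73 in CLEC4C-DTR ears and at 6.94, 6.98 and 6.74 in control ears. Of 11 mast cell markers, cells known for cysteinyl leukotrienes, 1 rose and none fell. It was Hdc, the histamine-making decarboxylase that neutrophils also express, by 2.33 (SE 0.37, adjusted p = 0.0164).

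Structural lists mostly had lower values. Of 8 skeletal muscle markers 3 fell, of 7 cartilage markers 2 fell, and of 7 fibroblast markers 1 rose. The shares over all genes were 4.31% lower and 5.01% higher. The fast muscle light chain Mylpf was at 9.40, 9.11 and 9.15 in CLEC4C-DTR ears and at 10.01, 10.07 and 10.77 in control ears. Limma called 0 of 9 plasmacytoid dendritic cell, 0 of 6 B cell and 0 of 2 red blood cell markers, with 2, 1 and 1 at an unadjusted p under 0.05.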
